A study of Mus musculus with 2 samples.

Results

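The peaks described here are the narrowest entries of a list of Usp16 ChIP-seq peaks from mouse bone marrow cells: all peaks on assembled chromosomes narrower than 486 bp. They were chosen by their measured width alone. They number 513 of the 5046 peaks on assembled chromosomes (10.2%). The full list has 5079 entries, and 1 further peak of this width lies on an unplaced or unlocalised contig and was left out. Usp16 chromatin was precipitated from cells positive for c-Kit and Sca-1, taken from Mx1-Cre mice with loxP-flanked Usp16 alleles and labelled as hematopoietic stem and progenitor cells. The design also has 1 IgG library of such cells, which was not analysed here. DNA had been sheared to about 200 bp. Both groups share the Mx1-Cre and loxP alleles. Mx1-Cre is an interferon-inducible transgene, and neither the induction of Cre nor the age or sex of the mice is given in the labels, so whether the cells still held Usp16 cannot be told. There is 1 library per antibody and no replicate, the values are peak positions and the caller's score, and the labelled cell type could not be checked against marker genes because no expression was measured. Read depth is unknown.

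Usp16 is a deubiquitinase that removes ubiquitin from histone H2A, the mark that Polycomb repressive complex 1 places on chromatin. Removal of this mark is linked to gene activation and to passage through mitosis, and Usp16 has been studied in blood stem cells for its part in their differentiation. In ChIP-seq a peak is a stretch where precipitated fragments pile up, and its width reflects how far the called pile-up extends. Active mammalian promoters are often rich in CpG, the dinucleotide in which cytosine is methylated where it is not protected.

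Sequence was at hand for the promoters of genes, as 300-base windows (250 bases before to 50 after a listed start, RefSeq, GRCm38.p6). The 250 bases before the start are shown for the 6 highest-scoring narrow peaks that overlap such a window of a protein-coding gene, to show what sequence the strongest narrow promoter peaks cover. They run 5′ to 3′ toward the start, and capitals mark GGGCGG (the GC box), CGGAAG (a core of ETS factor sites) and CCAAT boxes on either strand. They lie at chr7:121707443-121707692 (Usp31, minus strand), chr15:102325866-102326115 (Pfdn5, plus strand), chr16:92466170-92466419 (Rcan1, minus strand), chr1:36369182-36369431 (Kansl3, minus strand), chr4:136602724-136602973 (Kdm1a, minus strand) and chr4:136836013-136836262 (Ephb2, minus strand).
Usp31: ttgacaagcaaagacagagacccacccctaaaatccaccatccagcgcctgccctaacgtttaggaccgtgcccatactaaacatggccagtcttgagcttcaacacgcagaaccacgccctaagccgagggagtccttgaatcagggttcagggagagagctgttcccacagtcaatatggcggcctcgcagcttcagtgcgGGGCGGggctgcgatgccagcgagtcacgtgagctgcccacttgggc
Pfdn5: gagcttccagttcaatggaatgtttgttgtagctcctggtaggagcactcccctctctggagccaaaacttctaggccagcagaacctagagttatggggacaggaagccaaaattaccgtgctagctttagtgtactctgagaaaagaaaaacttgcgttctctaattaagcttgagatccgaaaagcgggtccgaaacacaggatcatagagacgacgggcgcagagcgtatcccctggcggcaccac
Rcan1: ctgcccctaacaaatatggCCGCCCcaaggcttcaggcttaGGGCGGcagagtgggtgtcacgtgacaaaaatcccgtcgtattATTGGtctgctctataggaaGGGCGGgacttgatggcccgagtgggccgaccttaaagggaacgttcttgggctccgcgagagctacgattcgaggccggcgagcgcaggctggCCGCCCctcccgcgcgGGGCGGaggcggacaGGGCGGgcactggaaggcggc
Kansl3: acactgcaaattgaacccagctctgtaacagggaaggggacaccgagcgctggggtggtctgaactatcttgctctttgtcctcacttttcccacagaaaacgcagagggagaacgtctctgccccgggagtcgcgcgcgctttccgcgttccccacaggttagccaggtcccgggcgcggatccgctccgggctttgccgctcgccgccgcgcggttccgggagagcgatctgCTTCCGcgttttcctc
Kdm1a: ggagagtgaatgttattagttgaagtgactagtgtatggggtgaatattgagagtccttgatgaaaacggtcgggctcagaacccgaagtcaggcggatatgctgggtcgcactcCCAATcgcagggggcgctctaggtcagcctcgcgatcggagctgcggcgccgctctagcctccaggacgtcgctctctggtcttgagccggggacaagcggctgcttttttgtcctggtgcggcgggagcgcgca
Ephb2: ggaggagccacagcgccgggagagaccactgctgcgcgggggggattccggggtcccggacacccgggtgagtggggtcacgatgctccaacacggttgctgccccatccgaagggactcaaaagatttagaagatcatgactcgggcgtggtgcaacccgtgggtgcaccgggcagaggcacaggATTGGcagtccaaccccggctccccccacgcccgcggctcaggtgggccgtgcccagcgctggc

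The 6 stretches differ among themselves. The Rcan1 stretch holds 24 CpG, 6 GC boxes and 1 CCAAT box, and the Kansl3 stretch holds 26 CpG and 1 CGGAAG. The Pfdn5 stretch holds 10 CpG and none of the 3 marked motifs. Kdm1a has 21 CpG and 1 CCAAT box, Ephb2 20 CpG and 1 CCAAT box, and Usp31 13 CpG and 1 GC box. For contrast, 2 windows with few CpG under narrow peaks at protein-coding genes were chosen after their values were seen. They belong to Axl, a receptor tyrosine kinase gene (6 CpG in the whole window, the fewest), and Adck1, a gene of a mitochondrial kinase-like protein (7, as in single windows of Alg9 and Zup1). A second listed start of Adck1 under the same peak has 24 CpG in its window. The 250-base stretches of Axl and Adck1 hold 5 CpG each and lie at chr7:25788734-25788983 (Axl, minus strand) and chr12:88360264-88360513 (Adck1, plus strand). Of these bases, 242 of Axl but only 121 of Adck1 lie in the peak. More of the Adck1 stretch thus lies outside its peak than in it.
Axl: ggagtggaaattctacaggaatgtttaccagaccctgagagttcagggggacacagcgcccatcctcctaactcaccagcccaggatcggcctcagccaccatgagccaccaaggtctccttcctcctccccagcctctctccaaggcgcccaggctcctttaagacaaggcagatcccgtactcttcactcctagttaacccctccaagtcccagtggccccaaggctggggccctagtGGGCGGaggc
Adck1: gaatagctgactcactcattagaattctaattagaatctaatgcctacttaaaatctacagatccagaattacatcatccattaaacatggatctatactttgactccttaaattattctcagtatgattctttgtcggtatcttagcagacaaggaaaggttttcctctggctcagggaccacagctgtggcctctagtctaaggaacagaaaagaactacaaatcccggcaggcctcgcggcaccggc

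Width chose the members, and the score comes from the same peak call, so both are given without a test. Narrow peaks were from 195 bp wide up to this limit, with a median of 427 bp and quartiles of 384 and 466 bp, and the other peaks had a median of 717 bp. The caller's score, the authors' own value for each peak, had a median of 58.5 among narrow peaks (quartiles 53.3 and 70.4) and 71.7 among other peaks (quartiles 58.6 and 99.6). Scores under 55, close to the lowest listed score of 50, were held by 36.6% of narrow and 15.05% of other peaks. At the other end, 54 narrow peaks (10.5%) scored 100 or more, against 24.8% of other peaks. Most narrow peaks thus had low scores within the list, with a small high-scoring tail. The 10 widest narrow peaks, all of 1 width, scored 50.1 to 95.4 with a median of 51.4, and the 8 peaks just outside (486 bp) scored 50.6 to 232 with a median of 64.9. Of the 10 inside, 2 lay at gene ends, 4 inside protein-coding genes and 4 between genes. Of the 8 outside, 2 lay at gene ends, 4 inside protein-coding genes, 1 inside another gene and 1 between genes. The highest-scoring peak inside the limit (95.4) lay 35.1 kb from the pseudogene Gm21045. Among those outside, the highest-scoring peak (232) lay between genes, 41.2 kb from the pseudogene Gm25975. The next, of score 126 and 70.0, lay inside Clic5, a chloride channel family gene, and Plxdc2, a gene of a membrane protein.

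Narrow peaks lay mostly away from genes' ends. Of 513, 100 had their midpoint 1 kb or less from an end of any annotated gene (19.5%, exact 95% interval 16.2 to 23.2%), beside 53.1% of all peaks and 56.8% of the other peaks (interval 55.4 to 58.3%). Ends of protein-coding genes accounted for 77 of them (15.01%, interval 12.03 to 18.4%), beside 46.7% of all peaks and 50.3% of other peaks. Ends of other kinds of gene held 4.48% of narrow and 6.57% of other peaks, with overlapping intervals (2.86 to 6.65% and 5.87 to 7.33%). The plot of location classes shows the same contrast. Gene ends include both the start and the end of transcription. With 1 library no test across samples was possible, and these exact Clopper-Pearson intervals cover counting error only.

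**Figure D1:**
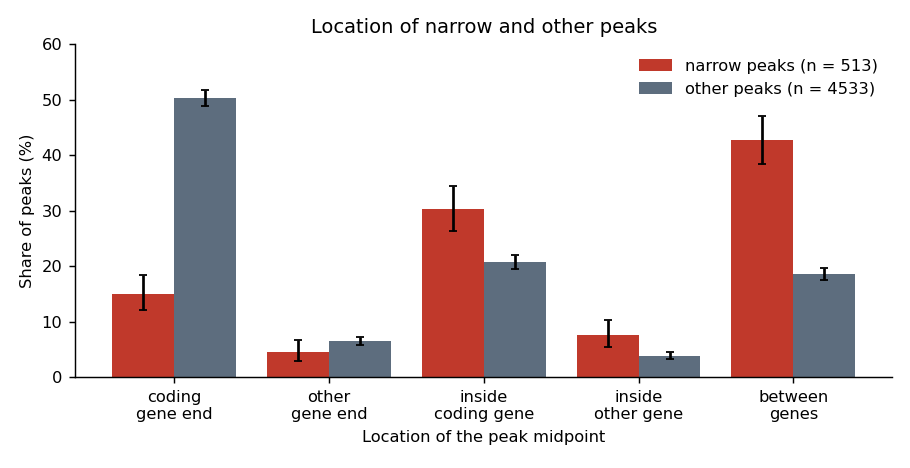
Share of narrow (red, n = 513) and other peaks (grey, n = 4533) whose midpoint falls in each of 5 location classes, with exact 95% intervals. Coding gene ends hold 15.01% of narrow and 50.3% of other peaks, and the space between genes holds 42.7% and 18.6%.

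Larger shares of narrow than of other peaks lay inside genes and between them. Between genes were 219 narrow peaks (42.7%, interval 38.4 to 47.1%) against 18.6% of other peaks (17.4 to 19.7%). Inside protein-coding genes but away from all gene ends were 155 (30.2%, 26.3 to 34.4%) against 20.7% (19.6 to 21.9%), and inside other genes 39 (7.60%) against 3.86%. The shares of all classes add up to the whole, so fewer gene-end peaks leave more for the rest. Among peaks away from ends alone, narrow peaks were inside protein-coding genes in 37.5% of cases (155 of 413, interval 32.8 to 42.4%) and other peaks in 48.1% (45.8 to 50.3%), so the order reversed. The space between genes then held 53.0% of narrow (48.1 to 57.9%) and 43.0% of other peaks (40.8 to 45.2%).

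Distances to gene ends were longer as well. The median distance from a narrow peak to the nearest end of an annotated gene was 10.3 kb (interval of the median 8.40 to 12.2 kb, quartiles 2.18 and 29.3 kb). For the other peaks it was 0.419 kb (interval 0.375 to 0.499 kb, quartiles 0.094 and 7.83 kb). Farther than 10 kb from every gene end lay 259 narrow peaks (50.5%, interval 46.1 to 54.9%), beside 25.2% of all peaks and 22.3% of other peaks. Farther than 100 kb lay 33 narrow peaks (6.43%, 4.47 to 8.92%) and 2.56% of other peaks (2.12 to 3.06%). With a width limit of 560 bp, which takes in 1267 peaks, the median distance was 6.45 kb, and with a gene-end window of 5 kb the share at gene ends was 34.9% for narrow and 70.2% for other peaks.

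**Figure D2:**
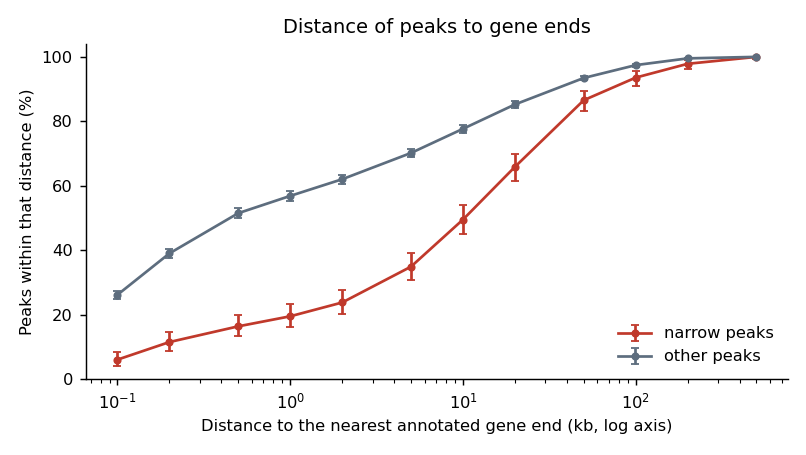
Cumulative share of narrow (red) and other peaks (grey) within a given distance of the nearest annotated gene end, on a log axis in kb, with exact 95% intervals. At 1 kb the curves stand at 19.5% and 56.8%, and at 10 kb at 49.5% and 77.7%.

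The share at gene ends was lower for narrow than for other peaks in each of 5 bands of score. This comparison within bands of score was chosen after seeing the data. Among peaks scoring 50 to under 55, 18.6% of 188 narrow peaks (interval 13.3 to 24.9%) and 48.5% of 682 other peaks (44.7 to 52.4%) lay at gene ends. Among those scoring 100 or more the shares were 14.8% of 54 (6.62 to 27.1%) and 68.0% of 1124 (65.2 to 70.7%). Among other peaks the share at gene ends was larger in each higher of these bands, while the narrow shares lay between 12.8% and 22.5% with overlapping intervals. Within the open top band it did not go on rising: it was 57.4% of the 195 other peaks scoring 200 or more (50.2 to 64.5%) and 48.1% of the 81 scoring 300 or more (36.9 to 59.5%). On autosomes alone the narrow shares were 17.8% in the lowest and 16.3% in the highest band. Within the narrow peaks the share at gene ends was 7.69% of the 26 that were 300 bp or narrower, and 8 of the 40 up to 350 bp lay there. It was 14.6% of the 96 up to 400 bp, 23.0% of the 165 up to 450 bp and 20.4% of the 186 wider than that, so these shares did not follow width steadily, and their intervals overlap. Just above the limit (up to 520 bp) it was 29.2%, with an interval that overlaps that of the widest narrow band (24.0 to 34.7% and 14.9 to 26.9%), and above 1000 bp it was 76.4%.

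**Figure D3:**
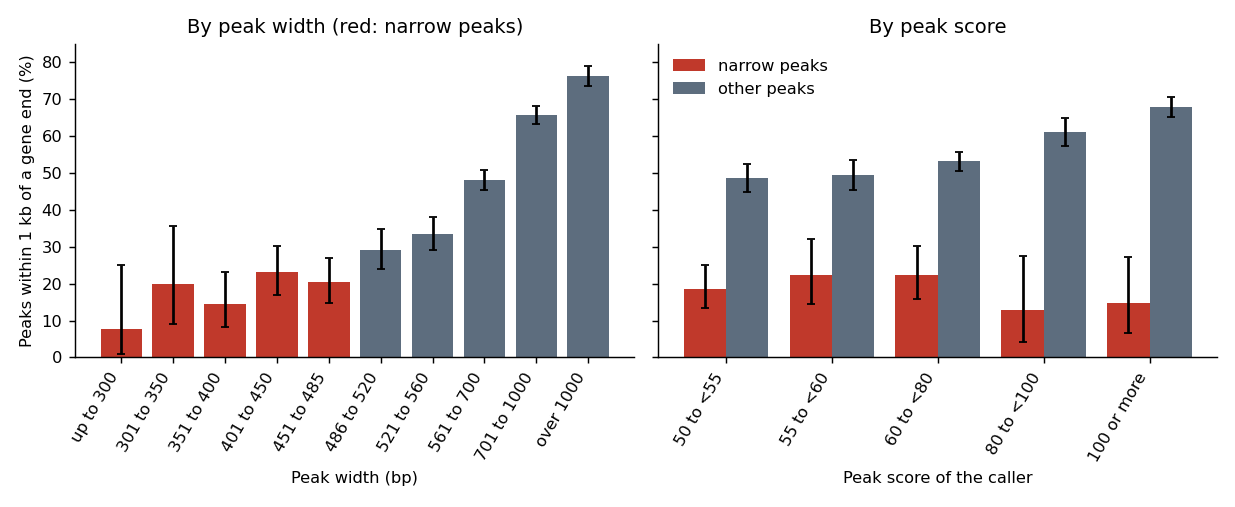
Share of peaks within 1 kb of a gene end by width (left, in bp, red for narrow peaks) and by the caller's score (right, narrow in red and other peaks in grey), with exact 95% intervals. Narrow peaks stay at 22.5% or less in each band of score, whereas other peaks go from 48.5% to 68.0%.

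The reference promoter table gives the strand and start of 17492 of the 21887 protein-coding genes (79.9%), so starts and 3′ ends of transcription could be told apart for these. Of 63 narrow peaks at either, 55 lay at a start only, 5 at a 3′ end only and 3 at both. Among the other peaks at either, 1927 of 2108 (91.4%, interval 90.1 to 92.6%) lay at a start only, beside 87.3% (76.5 to 94.4%) of the narrow ones. Narrow peaks at a listed start or 3′ end were therefore mostly start peaks, as the other peaks were. These counts are not a subset of the gene-end peaks. They include listed starts inside genes, reached by 2 narrow and 197 other peaks away from gene ends. Genes without a listed strand are left out. In all, 58 narrow peaks (11.3%) lay within 1 kb of a listed start, against 45.2% of other peaks.

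Where narrow peaks did lie at starts, they sat close to them. The midpoint was within 250 bp of the start for 43 of 58 (74.1%, interval 61.0 to 84.7%) and for 79.4% of the other start peaks (77.6 to 81.1%). The median offset was 70 bp upstream for narrow peaks (quartiles 137 bp upstream and 96.5 bp downstream) and 40.5 bp upstream for other peaks. Upstream of the start lay 34 of 58 narrow midpoints. Starts of 2 or more protein-coding genes, as at divergent promoters, were reached by 3 of 58 narrow peaks (5.17%, interval 1.08 to 14.4%) and by 16.0% of other start peaks (14.4 to 17.6%), with intervals a small margin apart. A smaller share of narrow peaks lay at starts. The quartiles of other start peaks were 151 bp upstream and 60 bp downstream, so the narrow upper quartile lay farther into the gene. From 400 to 600 bp downstream lay 5.17% of narrow (1.08 to 14.4%) and 1.61% of other start midpoints (1.11 to 2.26%), with overlapping intervals.

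Inside protein-coding genes narrow and other peaks differed in where they lay. Among peaks away from gene ends with a host gene of known strand, 2 of 122 narrow peaks (1.64%, interval 0.199 to 5.80%) were within 1 kb of another listed start of that gene, against 197 of 747 other peaks (26.4%, 23.2 to 29.7%). The hosts of the 2 narrow ones were Pcca, a subunit gene of mitochondrial propionyl-CoA carboxylase, with its midpoint 60.5 bp upstream of the start, and Npas4, a transcription factor gene, 823 bp downstream. The first 10% of the host gene held 7 narrow peaks (5.74%, 2.34 to 11.5%) and 16.6% of other peaks (14.0 to 19.5%), and the first 50% held 41.8% (32.9 to 51.1%) and 57.7% (54.1 to 61.3%). The narrow intervals of these 2 shares hold the 10% and 50% of an even spread. The stretch from 80 to 90% of the host gene held 21.3% of narrow peaks (14.4 to 29.6%). The median position was 63.3% of the way from the start for narrow and 41.6% for other peaks. Host genes were long in both cases, with medians of 122 kb for narrow (quartiles 49.8 and 348 kb) and 96.5 kb for other peaks (34.1 and 287 kb).

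**Figure D4:**
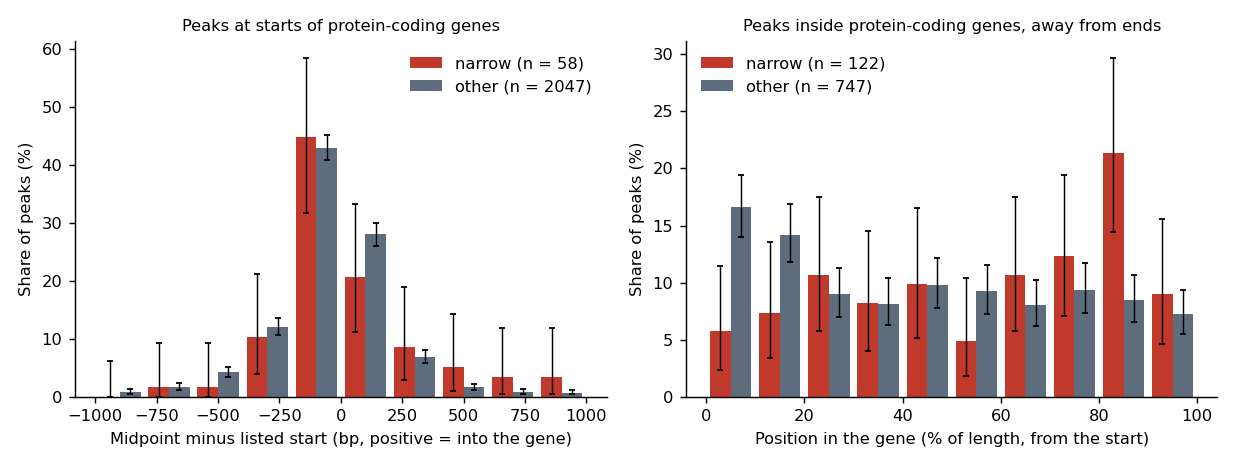
Left, offset of the peak midpoint from the nearest listed start of a protein-coding gene in bp, for 58 narrow (red) and 2047 other peaks (grey). Right, position inside the host gene in percent of its length, for 122 narrow and 747 other peaks away from gene ends. Bars are shares of peaks with exact 95% intervals. Offsets gather at the start in both, and 5.74% of narrow against 16.6% of other peaks lie in the first 10% of the gene.

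Of the 10 highest-scoring narrow peaks, 1 lay at a gene end. The top score, 645, belonged to a 382 bp peak inside Flt1, the gene of a receptor for vascular endothelial growth factor (chromosome 5, 147611326 to 147611707), 48.2 kb from the nearest gene end and 69.7% of the way along Flt1. It was followed by a peak of score 440.1 inside Kcnh1, a voltage-gated potassium channel gene (chromosome 1, 192453803 to 192454192), 56.2 kb from that gene's end. The third was the Usp31 start peak (chromosome 7, 121707356 to 121707757, score 437). A peak of score 428 lay between genes, 38.8 kb from the pseudogene Rpl34-ps2 and 105 kb from Isl1, a LIM homeodomain factor gene. One of score 343 lay between genes, 1.82 kb from Vmn2r102, a gene of the vomeronasal receptor family. This family has many similar copies, which can make read placement uncertain, and this was not tested here.

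The remaining 5 of these peaks scored 207 to 302. The strongest of them lay inside Plekhb2, a gene of a pleckstrin homology domain protein (score 302), and the weakest inside Hs6st3, a heparan sulfate sulfotransferase gene of 732 kb (score 207). The peak of score 276 lay inside the lncRNA gene Gm32035, and those of 269 and 263 lay between genes, 8.37 kb from the snoRNA gene Gm25614 and 23.0 kb from the lncRNA gene Gm35599. Further high-scoring narrow peaks inside protein-coding genes were in Gm35315 (192), in the collagen gene Col4a6 (187), in Lrp1b, a lipoprotein receptor-related gene of 2058 kb (161), and in Bmp6, a bone morphogenetic protein gene (158). Of the 26 narrow peaks scoring 150 or more, 3 lay at gene ends (11.5%, interval 2.45 to 30.2%), against 69.6% of 447 other peaks (65.1 to 73.8%). At 200 or more it was 1 of 10 (interval 0.253 to 44.5%) against 57.4%, and at 300 or more 1 of 6 (0.421 to 64.1%) against 48.1%, where the intervals overlap.

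The 5 narrowest peaks, the last of them tied in width with another and taken by its higher score, all lay away from gene ends, at 6.60 to 23.4 kb. The narrowest of all was 195 bp wide, scored 165 and lay 11.3 kb from Vmn2r-ps1, a vomeronasal receptor pseudogene (chromosome 1, 195279160 to 195279354). Peaks of 202, 220, 235 and 252 bp followed, with scores of 83.2, 57.9, 101 and 91.9. A second peak of 252 bp, with a score of 52.5, lay between genes 11.5 kb from the pseudogene Kif22-ps. The peak of 235 bp lay inside an lncRNA gene, and the others lay between genes.

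The 77 narrow peaks at protein-coding gene ends reached 87 genes, which is 0.397% of the 21887 protein-coding genes, beside 12.7% reached by other peaks. Only 4 genes had both kinds of peak at their ends: Dhx33, an RNA helicase gene, Glul, the glutamine synthetase gene, Rbbp8nl and Vps51, a tethering complex gene. The remaining genes with a narrow peak had no wider one at their ends. At ends of 2 or more protein-coding genes lay 10 of the 77 (13.0%, interval 6.41 to 22.6%) and 23.0% of other peaks (21.3 to 24.8%).

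Roles varied among genes whose ends held strong narrow peaks. Usp31, of the same enzyme family as Usp16, led with a score of 437. It was followed by Pfdn5, a subunit of the prefoldin chaperone (161), and Rcan1, a regulator of the phosphatase calcineurin (151). Kansl3, a subunit of the NSL histone acetyltransferase complex, had 145, and Kdm1a, the histone demethylase LSD1 with a known part in blood cell differentiation, had 137. Ephb2, an ephrin receptor gene, had 137 as well, and Pxk, a gene of a kinase-like protein with a PX domain, had 135. The midpoints of these 7 lay 11 to 238 bp from the gene's end. Vmn2r4 (130) and Fam78b (85.9) had theirs 0.916 and 0.909 kb away.

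Among the next peaks by score were Vps33b, a vesicle trafficking gene (93.3), Alg9, a mannosyltransferase gene of N-glycan assembly (82.9), Xxylt1, a xylosyltransferase gene (82.5), and Tafa2 (77.2). Col13a1, a collagen gene, had a peak of 76.4 at its 3′ end, 672 bp from it. Cbl, the gene of a ubiquitin ligase that limits signalling from receptors such as Kit, had one of 75.8. The remaining 62 of these peaks scored lower than these 15. Genes with narrow peaks in this lower range include Ryr2, a calcium release channel gene (73.5), and Arid1b, a chromatin remodeller subunit gene (56.6). These 2 were chosen after their values were seen.

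Of all peaks at protein-coding gene ends, 3.27% were narrow, and the counts of narrow peaks in gene groups are to be read against this share. None of 85 cytosolic ribosomal protein genes had a narrow peak at its ends, although 51 had a wider one. The same held for mitochondrial ribosomal protein genes, with 0 of 78 against 35, for clustered histone genes, with 0 of 67 against 34, and for proteasome genes, with 0 of 51 against 17. Of 101 respiratory chain and ATP synthase genes, Ndufa10, a complex I gene, alone had a narrow peak, against 33 with a wider one. Among 56 translation initiation factor genes the 2 with a narrow peak were Eif4e2, a cap-binding protein gene, and Eif2s3x, the X-linked gene of an eIF2 subunit, against 19 with a wider peak. The narrow share of each of these groups' peaks has an exact interval that holds 3.27%, such as up to 6.49% for 0 of 55 peaks at cytosolic ribosomal protein genes, so these counts do not set the groups apart from protein-coding genes as a whole.

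Counts in the other gene groups were also small, beside 0.397% of all protein-coding genes with a narrow and 12.7% with a wider peak. Usp31 was the only one of 56 ubiquitin-specific protease genes with a narrow peak, and 11 had a wider one. None of 37 ubiquitin-conjugating enzyme genes had a narrow peak and 8 had a wider one, and for numbered RING finger genes these counts were 0 and 13 of 83. Of 367 numbered Zfp genes, 1 (Zfp704) had a narrow and 66 a wider peak. DEAD and DEAH box helicase genes had 1 narrow (Dhx33) and 19 wider of 53, Rab genes 0 and 13 of 69, Tmem genes 0 and 41 of 238, and solute carrier genes 2 (one of them Slc25a53) and 39 of 375. Olfactory receptor genes had none of either kind among 1110. Vomeronasal receptor genes had 1 of each among 353, the narrow one being Vmn2r4. Of 10 genes with Cdkn names, 0 had a narrow and 2 a wider peak.

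Genes of tRNAs and snRNAs have their own promoters, which recruit RNA polymerase III or II. Of 408 tRNA genes, 136 had a wider peak at their ends (85 peaks) and 2 a narrow one, so that 2.30% of the peaks there were narrow (interval 0.280 to 8.06%), close to the 3.27% at protein-coding ends. The 2 were n-TVaac3, a valine tRNA gene (score 68.4, 54.5 bp away), and n-TPtgg7, a proline tRNA gene (score 56.2, 74.5 bp away). None of 1004 snRNA and 1340 snoRNA genes had a narrow peak, against 59 and 30 with a wider one, and the intervals of these narrow shares of peaks (up to 6.27% and 14.8%) also hold 3.27%. Of 1228 microRNA genes 2 had a narrow peak, Mir5126 and Mir8114, and 33 a wider one. Of the peaks there 5.88% were narrow (interval 0.720 to 19.7%). The Mir8114 peak (score 57.2) lay 159 bp from that gene's end and 266 bp from a start of Glul. One narrow peak of score 74.2 lay at Rprl3, an RNase P RNA gene, 117 bp from its end. Long noncoding RNA genes had 29 with a narrow and 447 with a wider peak of 12727. Of the peaks at their ends 5.93% were narrow (interval 3.98 to 8.46%). Pseudogenes had 4 with a narrow and 26 with a wider peak of 9944, and 12.9% of the peaks there were narrow (3.63 to 29.8%). Both of these intervals lie above 3.27%, but they overlap the interval of that share itself (2.59 to 4.07%). The leading narrow peaks at ends of genes that are not protein-coding were at the lncRNA gene Gm51898 (96.1) and the pseudogene Tgif2-ps1 (75.3), then Rprl3, the lncRNA gene Gm32749 (69.9) and n-TVaac3.

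The nearest gene was more often a pseudogene for narrow than for other peaks. Pseudogenes were 9944 of the 49943 gene records, and the share expected from their positions was not computed. A pseudogene was nearest for 90 of 513 (17.5%, interval 14.4 to 21.1%), against 6.31% of other peaks (5.62 to 7.06%), and a protein-coding gene for 49.9% against 67.7%. Among peaks farther than 10 kb from every gene end, a pseudogene was nearest for 26.3% of 259 narrow (21.0 to 32.1%) and 17.6% of 1012 other peaks (15.3 to 20.1%). There the shares next to protein-coding genes were 37.8% (31.9 to 44.0%) and 40.4% (37.4 to 43.5%).

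The X chromosome stood apart. Of its 91 peaks, 46 were narrow (50.5%, interval 39.9 to 61.2%), whereas 9.36% of autosomal peaks were (8.56 to 10.2%), from 5.93% on chromosome 7 to 13.9% on chromosome 14. X thus held 8.97% of narrow peaks and 0.993% of other peaks. The median width of all X peaks was 483 bp, and the 19 autosomes had medians of 636 to 793 bp. On Y, 4 of 7 peaks were narrow (57.1%, interval 18.4 to 90.1%). The share was also higher on X within bands of score, chosen after seeing the data: from 50 to under 60 the narrow share was 74.4% on X (29 of 39, interval 57.9 to 87.0%) and 16.4% on autosomes, and at 100 or more 26.3% (5 of 19, 9.15 to 51.2%) and 4.23%. The same was so at gene ends, with 27.3% on X (9 of 33, 13.3 to 45.5%) and 3.44% on autosomes, and with a width limit of 450 bp, at 40.7% and 5.82%. The sex of the mice is not given in the labels, and the read coverage of X was not analysed here.

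**Figure D5:**
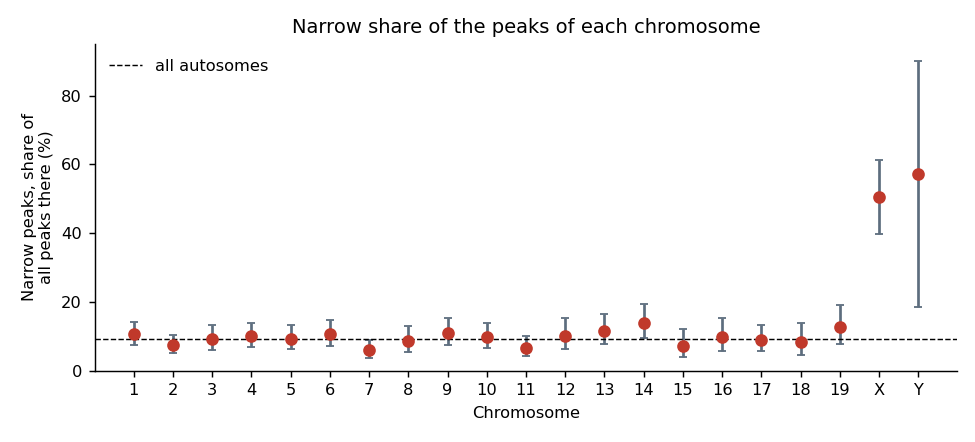
Narrow peaks as a share of all peaks on each chromosome, in percent, with exact 95% intervals, and the autosomal share as a dashed line. Autosomes lie between 5.93% and 13.9%, X at 50.5% and Y at 57.1%, the last from 7 peaks.

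The share of narrow peaks at gene ends was of similar size on X and on autosomes. Of 46, 9 did (19.6%, interval 9.36 to 33.9%), beside 19.7% of 463 autosomal narrow peaks (16.1 to 23.6%), and 53.3% of the 45 wider X peaks did (37.9 to 68.3%). At protein-coding gene ends there were 8. They were at Syp, the synaptophysin gene (72.1), Dkc1, the gene of the pseudouridine synthase dyskerin (61.1), Syn1, a synapsin gene (58.1), Eif2s3x (54.0), Fundc2 (52.4), Armcx1 (52.4), Fam50a (50.3) and Slc25a53, a mitochondrial carrier family gene, near the listing minimum. The strongest narrow X peaks lay 9.13 kb from Amot, the angiomotin gene (189), inside Col4a6 (187) and 30.8 kb from Tspan7, a tetraspanin gene (173). Without X and Y the share of narrow peaks at gene ends was 19.7%.

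Promoter windows under narrow peaks resembled those under wider peaks in base composition. The 65 windows (of 59 genes, under 51 narrow peaks) had a median GC content of 61.0% (interval of the median 59.0 to 64.3%) and 22 CpG (18 to 24). The 2911 windows under other peaks had 60.7% and 22 CpG, whereas all 32851 windows had 52.7% and 7 CpG. Windows with 5 or fewer CpG made up 3.08% under narrow and 1.96% under other peaks, and 43.6% of all windows. The whole windows of the 6 strongest narrow promoter peaks held 17 to 33 CpG, and the quartiles of windows under narrow peaks were 15 and 29.

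Shares of windows with a motif match lay close together for most motifs. GGGCGG (either strand) was in 61.5% of windows under narrow peaks (interval 48.6 to 73.3%), in 63.2% under other peaks and in 35.7% of all windows. CCAAT was in 36.9%, 37.3% and 37.4%, and CACGTG, the E-box, in 6.15%, 11.6% and 7.15%. The AP-1 site TGACTCA was in 4.62%, 3.16% and 5.20%. The blood factor motif AGATAA was in 3.08%, 5.74% and 11.2%. GGAAG was in 69.2% (56.6 to 80.1%), 79.6% and 71.4%. Its longer form CGGAAG, added after seeing the data and contained in matches of GGAAG, was in 23.1% of windows under narrow peaks (15 of 65, interval 13.5 to 35.2%), in 42.9% under other peaks (41.1 to 44.8%) and in 16.9% of all windows. Of the printed stretches only that of Kansl3 holds it. The palindromic site of NRF1 and the palindromic element built around CGCG, also added, were in 0 of 65 windows under narrow peaks (interval up to 5.52%). Under other peaks they were in 2.44% and 3.95% of windows, both within that interval, and among all windows in 0.971% and 0.466%. The whole window lay inside the peak for 40.0% of windows under narrow and 81.5% under other peaks, and windows of 1 gene overlap, so they are not independent.

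Narrow peaks lay farther from other peaks than wider ones did. The median gap from the edge of a narrow peak to the next peak of any width was 169 kb (interval of the median 139 to 209 kb), and 83.7 kb (80.03 to 87.8 kb) for other peaks. Another peak lay within 10 kb of 23 narrow peaks (4.48%, interval 2.86 to 6.65%), beside 8.92% of all peaks and 9.42% of other peaks (8.58 to 10.3%). With scores at or above the list's median this share was 2.31% of 130 narrow peaks. It was not computed for other peaks of such scores. In 23 of 23 cases a wider peak was among those neighbours, and 1 pair of narrow peaks lay within 10 kb of each other, 2055 bp apart near the start of chromosome 17 (3020483 to 3020684 and 3022739 to 3023154, scores 83.2 and 65.5). Within 1 kb of another peak lay 2 narrow peaks. No gene held 3 or more narrow peaks. Those with 2 were the protein-coding genes Fggy, Lrp1b, Pcca, Tns1 and Xkr6, of 214 to 2058 kb, and 1 pseudogene.

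The genes tied to the study's question had no narrow peak inside them or at their ends. Only 0.397% of all protein-coding genes had a narrow peak at their ends. Away from gene ends, 155 narrow peaks lay inside any of the 21887 protein-coding genes. Neither absence therefore sets these genes apart. The nearest narrow midpoint lay 1699 kb from an end of Usp16 (chromosome 16, 87454985 to 87483515), and 7741 and 11368 kb from Kit and Ly6a, the genes of c-Kit and Sca-1. It lay 560.3 kb from Cdkn1a, a cell cycle inhibitor gene, and 57.3 kb from Cdkn2a, where it is the peak at Tgif2-ps1 (score 75.3).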

How the data were processed

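The data are 1 list of peaks from an anti-Usp16 ChIP-seq library of mouse bone marrow cells positive for c-Kit and for Sca-1, with 1 IgG library in the design, whose own signal was not analysed here. The authors called peaks with MACS in Galaxy, per the file headers, and Bowtie, Picard and the build mm10 appear in the submitters' processing notes. For versions, settings and the use of IgG, the sources used here give nothing. The score of each peak was deposited as the caller wrote it. Peaks, in 1-based coordinates, were placed by midpoint against 49943 gene records of RefSeq GRCm38.p6. Starts and strand came from 32851 RefSeq promoter windows of 27025 genes, which include none on chromosome 18. A gene end counted as carrying a peak at a distance of 1 kb or less. Intervals are exact Clopper-Pearson 95% intervals, and those of medians are order-statistic intervals. The placement and spacing code was checked on simulated peaks. Python 3.11.15, pandas 2.3.3, numpy 2.4.6 and SciPy 1.17.1 were used.

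The members, the 17 symbol-pattern lists and 7 gene types were chosen with earlier results of these data known, so the share at gene ends is not independent evidence. The planned lists of an earlier session were not used here. Named were the highest-scoring narrow peaks (10 in all, 15 at protein-coding ends, 5 at other gene ends, 8 inside protein-coding genes and 5 farther than 10 kb from gene ends), the 5 narrowest, the peaks at the width limit, genes with 3 or more narrow peaks, up to 3 members of each list and 5 genes tied to the study. Peaks on X and Y were named after their values were seen, and score bands, the X comparison and 3 of the 9 motifs were likewise added then. Alternatives were other width limits, windows, overlap rules, scores, chromosomes and gene sets.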

Additional observations from a re-analysis of the deposited data

How the results depend on the processing

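Of 59 values under 10 alternative settings of 7 results, 44 stayed within the interval of the reported value (for the number of genes, within 1.5 times) and 15 did not. With a width limit of 560 bp, 26.8% of the peaks lay at gene ends, 20.8% at protein-coding ends and 36.8% between genes, the median distance was 6450.5 bp and 300 protein-coding genes were reached. With 450 bp, 24.8% lay inside protein-coding genes, 48.9% between genes, and 56 genes were reached. With a window of 5 kb, 34.9% lay at gene ends, 25.3% at protein-coding ends, 24.2% inside protein-coding genes and 35.7% between genes, and 169 genes were reached. With scores at or above the median, 2.31% had another peak within 10 kb and 20 genes were reached. Under every setting run for both, the share at gene ends was lower for narrow than for other peaks, at 16.4 to 34.9% against 51.5 to 70.2%. Window, overlap and gene-set settings do not bear on spacing, and window and overlap settings do not bear on distance, so these gave no value. No paired analysis was possible because each antibody has 1 library. Read depth is unknown, and peaks below a score of 50 are not listed, so the absence of a narrow peak is no measure of absent binding.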

Other observations

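The 4 narrow peaks on the Y chromosome all lay between genes, 62.9 to 272 kb from the nearest gene end, with scores of 73.3, 59.0, 52.0 and 51.4. The nearest gene was the vomeronasal receptor pseudogene Vmn2r-ps140 for the strongest, and Gm20873, Gm21292 and Gm20815 for the others. Y holds many near-identical copies of genes, which can make the placement of reads there uncertain, and this was not tested here.

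Narrow peaks lay far from each other. The median distance from a narrow peak to the next narrow one was 1786 kb (quartiles 698 and 3699 kb), and to the next wider peak 209 kb (quartiles 58.6 and 655 kb). Wider peaks were 4533 and narrow ones 513, so the 2 distances run to sets of unequal size.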
